A study of Mus musculus with 6 samples.

Results

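The genes described here are 10 DENN domain paralogues of Dennd1a, taken by symbol from the 18280 genes of the deposited expression table: Dennd1b, Dennd1c, Dennd2a, Dennd2c, Dennd2d, Dennd3, Dennd4a, Dennd4b, Dennd4c and Dennd5a. Dennd1a itself was left out of the set, because it is the gene that the mice overexpress. The study sequenced ovary RNA of Dennd1a transgenic mice (TG, genotype label Dennd1aTG, 3 animals) and of wild-type mice (WT, 3 animals). All 6 animals had been injected with PMSG, a serum gonadotropin that acts like FSH on follicles, 44 h before collection, so neither genotype was sampled without gonadotropin. The promoter of the transgene, the mouse strain, the age of the animals and any batch are not given in the sources used here. The comparison asks whether transcripts of the other family members differ when Dennd1a is in excess.

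DENN proteins switch on Rab GTPases, the small GTPases that direct vesicles between membranes, by exchanging bound GDP for GTP. The members of the DENND1 subfamily act on Rab35 in endocytic recycling and bind clathrin or its adaptor AP-2, and the other subfamilies act on other Rabs: DENND2 on Rab9, DENND3 on Rab12, DENND4 on Rab10 and DENND5 on Rab39. In granulosa cells the FSH receptor is internalised and recycled through endosomes, and DENND1A is known in the ovary because variants at its human locus are associated with polycystic ovary syndrome.

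All 10 paralogues were detected in ovary and all 10 had enough counts to be tested, and their mean levels per transcript length covered a 123-fold range. Upstream sequences of the least abundant member (Dennd1c), of the other DENND1 gene of the set (Dennd1b) and of the most abundant member (Dennd5a) are shown to set the extremes of abundance side by side, with the density of CpG dinucleotides, a feature that was not used to choose the 10 genes. Each is the 250 bases before the start that RefSeq's promoter table gives for the gene on GRCm38.p6, 5′ to 3′ on the gene's own strand, with CpG dinucleotides in capitals. The Dennd1c window is chr17:57078499-57078748 on the minus strand, the Dennd1b window is chr1:138963459-138963708 on the plus strand and the Dennd5a window is chr7:109960471-109960720 on the minus strand.
Dennd1c: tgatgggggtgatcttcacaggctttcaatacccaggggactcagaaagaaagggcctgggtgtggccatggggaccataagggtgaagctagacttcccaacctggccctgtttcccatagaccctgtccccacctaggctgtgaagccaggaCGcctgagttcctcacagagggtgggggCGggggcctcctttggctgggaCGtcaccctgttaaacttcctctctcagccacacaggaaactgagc
Dennd1b: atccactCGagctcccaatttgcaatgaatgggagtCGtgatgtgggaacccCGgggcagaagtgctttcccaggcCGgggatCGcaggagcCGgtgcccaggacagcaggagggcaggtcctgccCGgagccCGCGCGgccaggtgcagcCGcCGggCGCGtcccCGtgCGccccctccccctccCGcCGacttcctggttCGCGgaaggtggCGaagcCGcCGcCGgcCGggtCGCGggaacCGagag
Dennd5a: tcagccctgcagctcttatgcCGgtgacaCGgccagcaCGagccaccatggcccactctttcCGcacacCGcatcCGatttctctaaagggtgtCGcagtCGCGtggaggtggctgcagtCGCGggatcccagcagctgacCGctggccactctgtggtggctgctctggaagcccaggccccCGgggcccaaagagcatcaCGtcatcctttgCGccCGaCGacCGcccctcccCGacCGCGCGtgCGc
The Dennd1c window held 3 CpG dinucleotides, the Dennd1b window 28 and the Dennd5a window 23, against a median of 15 over the 11178 windows of tested genes. Of those windows 10.3% held no more CpG than that of Dennd1c. Among the 9 members with a RefSeq window the counts ran from 2 in Dennd2c to 28 in Dennd1b, and Dennd2a and Dennd4c, which were among the 3 most abundant members, had 25 and 23. Not all of these windows lie upstream of the RefSeq gene span. That of Dennd2c is 103127306 to 103127555 of chromosome 3, inside a gene that begins at 103102647. The windows of Dennd4a and Dennd2a also lie inside their genes, and those of Dennd1c, Dennd4b and Dennd4c lie partly inside. Abundance did not follow CpG count throughout, since Dennd1b had the most CpG, yet Dennd5a, Dennd2a and Dennd4c were more abundant. Both strands were also searched for letters associated with hormone and interferon responses. The cAMP response element TGACGTCA was in 0 of the 9 windows and in 2.55% of all windows, its shorter form TGACG, which the longer one contains, was in 4 of 9 and in 25.6%, and GAAANNGAA, a shortened form of the interferon-stimulated response element, was in 0 of 9 and in 6.24%.

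Library totals ran from 17075484 to 17763323 estimated counts in TG and from 17106719 to 18516171 in WT. Dennd1a measured 570, 582 and 588 CPM (normalised reads per 1000000) in TG libraries 1 to 3 and 44.6, 39.5 and 49.3 CPM in WT libraries 1 to 3, and every TG library was far above every WT library, as labelled. Defining markers of granulosa cells (7 of 7 listed genes), theca and interstitial cells (6 of 6) and oocytes (8 of 8) were detected, and no gene of these lists was at 0 in every library. TG replicate 2 stood apart in adipocyte markers (summed level 143 CPM, against 31.1 CPM or less elsewhere). WT replicate 3 stood apart in oviduct (50.1 CPM, against 29.0 CPM or less), smooth muscle (2043 CPM, against 1532 CPM or less) and oocyte markers (199 CPM, against 148 CPM or less). Surface epithelium markers were low in both, at 76.7 CPM in TG replicate 2 and 69.6 CPM in WT replicate 3, against 120 to 141 CPM elsewhere. The fit was repeated without these libraries.

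No paralogue passed the test between genotypes. In edgeR's quasi-likelihood test with Benjamini-Hochberg adjustment over 14124 genes, 0 of 10 members had an adjusted p under 0.05, where 1.05% of all tested genes did. The lowest adjusted p among them was 0.892, for Dennd1c. DESeq2 and limma-voom also called 0 of the 10, against 1.30% and 0.977% of the genes they tested. At an unadjusted p under 0.05 edgeR had 1 member, Dennd1c, against 4.08% of all genes and 4.93% of genes with a mean under 2 CPM. The median log2 fold change (TG over WT) of the 10 was 0.00, with 5 above 0 and 5 below, and the median over all tested genes was also 0.00, with the middle 50% between -0.08 and 0.08. The median size of the change, regardless of sign, was 0.06 for the members and 0.08 for all genes.

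**Figure D1:**
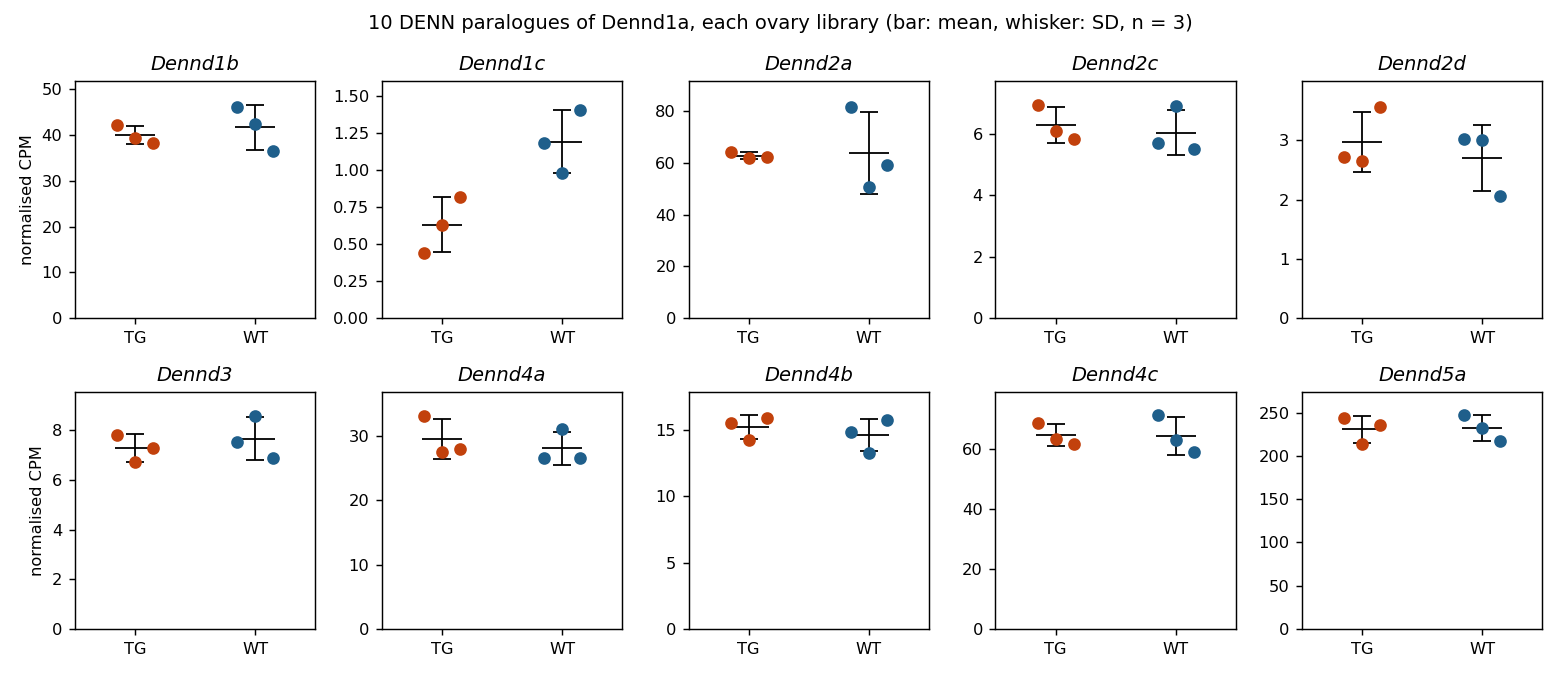
Normalised CPM of the 10 paralogues in each TG and WT library, 1 panel per gene with its own axis starting at 0 (points: libraries, bar: mean, whisker: SD, n = 3). The TG and WT points overlap in every panel except Dennd1c, where TG lies between 0.444 and 0.817 CPM and WT between 0.985 and 1.41 CPM.

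In the DENND1 subfamily, which shares the target Rab35 with the transgene product, the members differed in level and in how well they could be measured. Dennd1b (Entrez gene 329260, chromosome 1, 138963709 to 139176043 on GRCm38) encodes an exchange factor known from T cells, where it limits signalling by the antigen receptor. It measured 42.3, 39.3 and 38.4 CPM in TG libraries 1 to 3 and 46.2, 42.4 and 36.5 CPM in WT libraries 1 to 3. The WT libraries span the whole range of the TG libraries. The fitted log2 fold change of Dennd1b was -0.06 (SE 0.10), and its 95% interval of -0.29 to 0.17 runs on the linear scale from a fold of 0.816 to 1.13.

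Dennd1c (Entrez gene 70785, chromosome 17, 57066051 to 57078529) encodes the third DENND1 protein, which also acts on Rab35. It measured 0.444, 0.632 and 0.817 CPM in TG libraries 1 to 3 and 1.19, 0.985 and 1.41 CPM in WT libraries 1 to 3. Every TG library was below every WT library, as for 5.04% of all tested genes and 6.48% of those with a mean under 2 CPM. The log2 fold change was -0.91 (SE 0.34, 95% interval -1.68 to -0.15, unadjusted p = 0.0245, adjusted p = 0.892 in edgeR), so the difference did not pass over all genes. These levels rest on 8.16, 10.52 and 13.76 estimated counts in TG libraries and 22.35, 17.66 and 23.89 in WT libraries. Dennd1c met the minimum for testing through its WT libraries, of which 3 of 3 reached 0.566 CPM, as did 2 of 3 TG libraries.

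The counts of Dennd1c were fractions that complemented those of a neighbouring gene. In 6 of 6 libraries the Dennd1c count and the count of Crb3, a polarity gene on the opposite strand, added up to a whole number within 0.015. In the GENCODE M21 annotation of GRCm38 the exons of these genes overlap by 14 bases at their ends, positions 57065905 to 57065918 of chromosome 17. In RefSeq Dennd1c spans 57066051 to 57078529, outside those bases, and overlaps no other gene. The annotation behind the counts is not given. The summed counts were 59, 50 and 60 in TG libraries 1 to 3 and 72, 71 and 66 in WT libraries 1 to 3. With the sum in place of Dennd1c the log2 fold change was -0.27 (SE 0.19, unadjusted p = 0.186 in edgeR). Dennd1c held at most 36.2% of any sum, so a change in it alone would be smaller in the sum. Whether the division of reads differed between genotypes was not tested. Crb3 taken alone had a log2 fold change of -0.06 (SE 0.21), with 2.58 ± 0.307 CPM in TG ovaries and 2.69 ± 0.217 CPM in WT ovaries (SD, n = 3 each). The share of the summed counts that was given to Dennd1c ran from 13.8% to 22.9% in TG and from 24.9% to 36.2% in WT.

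**Figure D2:**
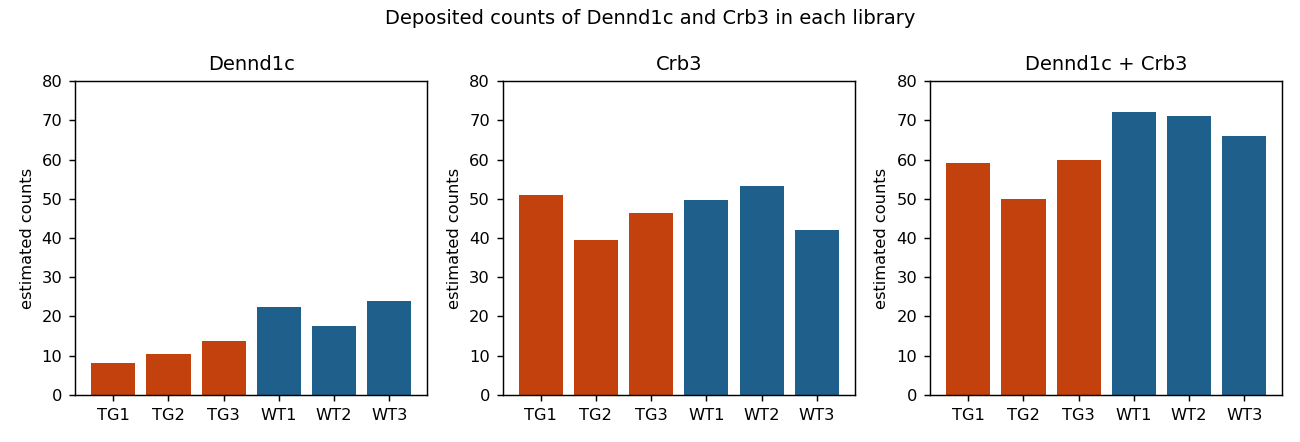
Deposited estimated counts of Dennd1c (left), Crb3 (middle) and their sum (right) in each library, on a shared axis from 0 to 80 counts, TG libraries first. Dennd1c lies between 8.16 and 13.76 counts in TG and between 17.66 and 23.89 in WT, the Crb3 counts of the genotypes overlap, and the sums are 50 to 60 in TG and 66 to 72 in WT.

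Interferon-response genes fell in TG, and most markers of immune cells and of several other cell types had values on the same side of 0 as Dennd1c. Of 17 macrophage and myeloid markers, 17 had log2 fold changes below 0, with a median of -0.59, 11 at an unadjusted p under 0.05 and 0 called over all genes in edgeR. DESeq2 called 6 of them lower in TG and limma-voom 0. Their summed level was 405 to 437 CPM in TG and 449 to 725 CPM in WT, and none of the 17 was at 0. The summed level of 11 lymphocyte markers was 11.3 to 13.9 CPM in TG and 14.0 to 15.2 CPM in WT. Of 9 tested lymphocyte markers 8 were below 0, with a median of -0.26, 1 at an unadjusted p under 0.05 and 0 called in edgeR, DESeq2 or limma-voom. The T cell gene Cd3e measured 0.721, 0.230 and 0.467 CPM in TG and 0.485, 0.766 and 0.881 CPM in WT. These rest on 4 to 15 counts per library. Lck, with 73 to 112 counts, had a log2 fold change of -0.08 (SE 0.20). Cd79a, the tested lymphocyte marker above 0, had 0.60 (SE 0.41). The 16 interferon-response genes all fell (adjusted p under 0.05 in edgeR), with a median of -3.05. Below 0 were also 7 of 7 endothelium markers (median -0.16, 2 at an unadjusted p under 0.05), 6 of 6 smooth muscle markers (median -0.20), 5 of 7 surface epithelium markers (median -0.13) and 2 of 2 tested oviduct markers (median -1.26), of which edgeR, DESeq2 and limma-voom called 0. Above 0 were 6 of 7 granulosa markers (median 0.10) and 5 of 7 tested oocyte markers (median 0.03). So were 4 of 6 theca and interstitial markers (median 0.03) and 2 of 2 tested adipocyte markers (median 1.79). Of these lists edgeR and limma-voom called 0 genes, and DESeq2 called 1 theca and interstitial marker. Single libraries set some of the sums apart. Smooth muscle markers summed to 1199 and 1323 CPM in WT replicates 1 and 2 and 2043 CPM in WT replicate 3. In TG they summed to 1288 to 1532 CPM. Adipocyte markers summed to 21.1 and 21.5 CPM in TG replicates 1 and 3 and 143 CPM in TG replicate 2. In WT their sum was 11.6 to 31.1 CPM. Oviduct sums were 12.3 to 21.9 CPM in TG and 24.4 to 50.1 CPM in WT. The part of these cells and genes in the Dennd1c value was not tested, and in whole ovary fewer cells of a type and less RNA per cell cannot be told apart.

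The 5 genes whose pattern over the 6 libraries was most like that of Dennd1c were sought among 12704 tested genes with a mean of at least 2 CPM, by the root mean square difference of log2 CPM after each gene was centred on its own mean. They were Tifab, with a difference of 0.08, Lrrc25 at 0.13, Trex1 at 0.18, Lst1 at 0.18 and Aoah at 0.19. Dennd1c itself varied around its mean by 0.49 on the same scale. Tifab measured 2.16, 2.70 and 3.15 CPM in TG libraries 1 to 3 and 5.07, 3.83 and 5.99 CPM in WT libraries 1 to 3. The order of the libraries was the same for Tifab and Dennd1c, from TG replicate 1 at the bottom to WT replicate 3 at the top. The log2 fold changes of the 5 genes lay between -1.04 and -0.73, which follows from how they were chosen and is given without a test.

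**Figure D3:**
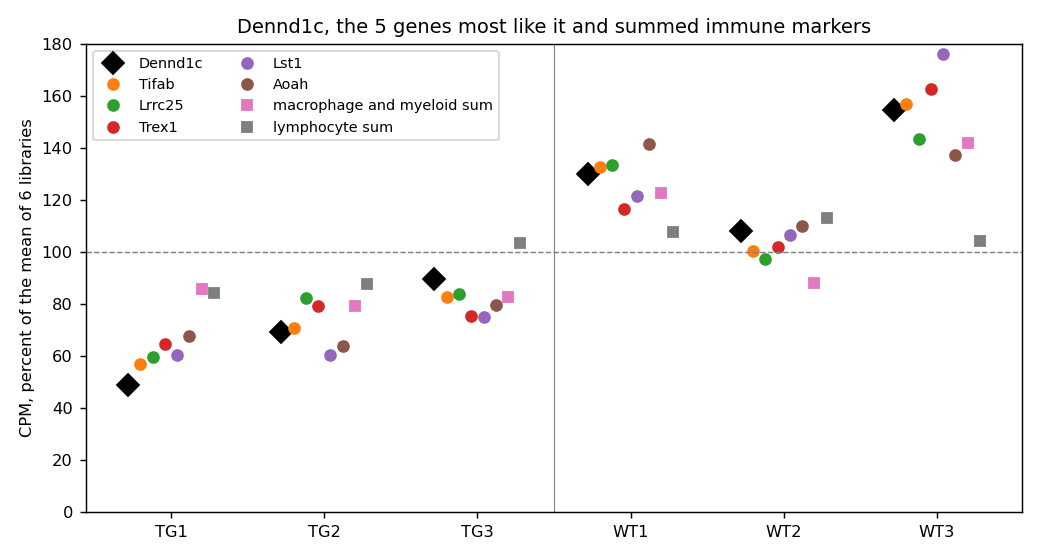
CPM of Dennd1c, of the 5 genes most like it and of the summed macrophage and myeloid and lymphocyte markers in each library, as a percent of the mean of the 6 libraries (dashed line at 100). Dennd1c lies between 48.7% and 89.5% in TG and between 108% and 155% in WT, and the myeloid sum lies between 79.3% and 85.7% in TG and between 87.9% and 142% in WT.

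The DENND2 members, exchange factors for Rab9, which works in transport from late endosomes to the Golgi, had mean levels between 0.973 FPKM (reads per kilobase of transcript and per 1000000 reads) for Dennd2d and 15.1 FPKM for Dennd2a over the 6 libraries. Dennd2a (Entrez gene 209773, chromosome 6, 39462374 to 39558145) measured 64.3, 61.9 and 62.3 CPM in TG libraries 1 to 3 and 81.7, 50.8 and 59.1 CPM in WT libraries 1 to 3. The TG libraries lay close together (SD 1.31 CPM, against 16.0 CPM in WT), whereas WT replicate 1 was the highest and WT replicate 2 the lowest of all 6 libraries. For Dennd2a the fit gave -0.02 in log2 (SE 0.15), and the 95% limits were -0.37 and 0.32. Without WT replicate 1 its value was 0.19 (SE 0.10), still not called.

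Dennd2c (Entrez gene 329727, chromosome 3, 103102647 to 103169738) measured 6.94, 6.09 and 5.83 CPM in TG libraries 1 to 3 and 5.71, 6.89 and 5.52 CPM in WT libraries 1 to 3. The genotypes overlapped, and the log2 fold change was 0.06 (SE 0.17, 95% interval -0.33 to 0.44). Dennd2d (Entrez gene 72121, chromosome 3, 106482431 to 106503030), the shortest of the 10 with 476 codons in its longest GENCODE coding sequence, measured 2.72, 2.64 and 3.56 CPM in TG libraries 1 to 3 and 3.02, 3.01 and 2.06 CPM in WT libraries 1 to 3. The highest library was a TG one and the lowest a WT one, while the others lay between 2.64 and 3.02 CPM. The log2 fold change of Dennd2d was 0.14 (SE 0.24, 95% interval -0.41 to 0.69), the widest interval after that of Dennd1c. Its counts were fractions too, and in 6 of 6 libraries they added up to a whole number with those of Cept1, a phospholipid synthesis gene on the opposite strand whose exons overlap it by 771 bases. Dennd2d held between 5.74% and 7.96% of the summed counts in TG and between 5.27% and 6.89% in WT.

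Dennd3 (Entrez gene 105841, chromosome 15, 73512560 to 73572242), an exchange factor for Rab12 with a role in autophagy, measured 7.82, 6.72 and 7.29 CPM in TG libraries 1 to 3 and 7.54, 8.59 and 6.87 CPM in WT libraries 1 to 3. The ranges overlapped, and the fitted log2 fold change was -0.08 (SE 0.16, 95% interval -0.43 to 0.28).

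The DENND4 members encode the longest proteins of the set and act on Rab10, which carries the glucose transporter GLUT4 to the surface of fat cells. Dennd4a (Entrez gene 102442, chromosome 9, 64806124 to 64919667), also known as a protein that binds the Myc promoter, measured 33.2, 27.5 and 28.0 CPM in TG libraries 1 to 3 and 26.6, 31.1 and 26.7 CPM in WT libraries 1 to 3. In each genotype 1 library stood above the other two. Dennd4b (Entrez gene 229541, chromosome 3, 90265020 to 90280665) measured 15.5, 14.2 and 15.9 CPM in TG libraries 1 to 3 and 14.8, 13.3 and 15.7 CPM in WT libraries 1 to 3. Dennd4c (Entrez gene 329877, chromosome 4, 86748518 to 86850603), whose product regulates GLUT4 traffic in adipocytes, measured 68.8, 63.4 and 61.6 CPM in TG libraries 1 to 3 and 71.2, 62.9 and 59.0 CPM in WT libraries 1 to 3. The ranges of the genotypes overlapped for all 3 DENND4 genes. The log2 fold change was 0.07 (SE 0.11) for Dennd4a, 0.06 (SE 0.12) for Dennd4b and 0.00 (SE 0.09, 95% interval -0.21 to 0.22) for Dennd4c.

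Dennd5a (Entrez gene 19347, chromosome 7, 109893780 to 109960470), which binds Rab6 and acts on Rab39, was the most abundant paralogue and the most precisely measured. It measured 244, 214 and 235 CPM in TG libraries 1 to 3 and 247, 233 and 217 CPM in WT libraries 1 to 3. The libraries of the genotypes interleaved, and the log2 fold change was -0.01 (SE 0.09, 95% interval -0.20 to 0.19), which runs from a fold of 0.868 to 1.14.

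**Figure D4:**
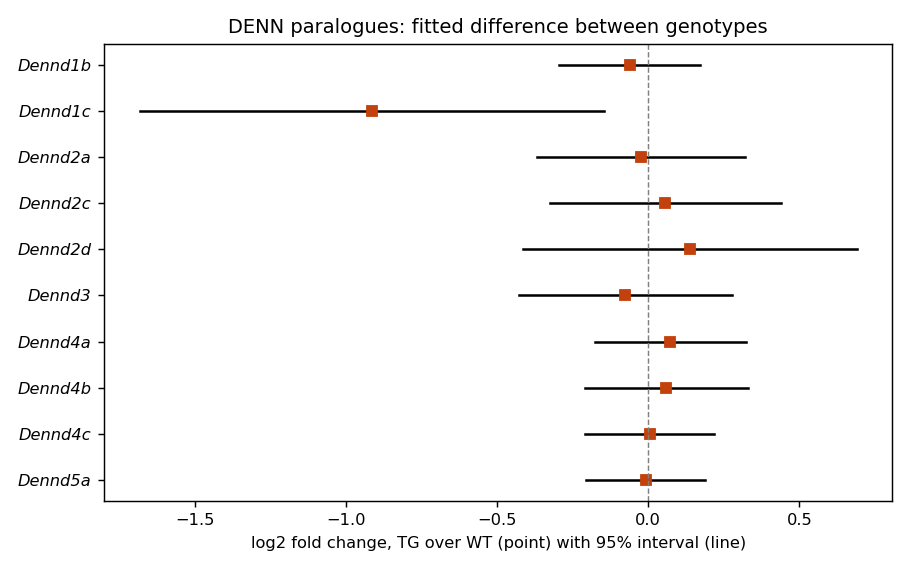
Fitted log2 fold change (TG over WT, squares) of the 10 paralogues with 95% intervals (lines), and a dashed line at 0. The intervals of 9 genes include 0 and lie between -0.43 and 0.69, and that of Dennd1c, which is not adjusted for the number of genes, runs from -1.68 to -0.15.

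The width of the intervals differed between members. For the 8 paralogues other than Dennd1c and Dennd2d, all 95% intervals lay between folds of 0.744 and 1.36. The interval of Dennd2d reached 1.61-fold, and that of Dennd1c reached from 0.312 to 0.903. A p above the threshold does not show that the levels were equal.

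On the FPKM scale, which allows genes of unequal length to be set side by side, Dennd5a was highest at 48.4 ± 3.89 in TG and 48.4 ± 3.38 in WT (SD, n = 3 each). Dennd2a (15.01 ± 0.568 in TG and 15.1 ± 3.84 in WT) and Dennd4c (12.1 ± 0.646 in TG and 11.8 ± 1.14 in WT) came next, and their libraries overlapped. Dennd1b followed at 5.07 ± 0.319 FPKM in TG and 5.25 ± 0.641 in WT. Dennd4a and Dennd4b overlapped each other between 2.69 and 3.99 FPKM. Dennd3, Dennd2c and Dennd2d formed a run of overlapping neighbours between 0.76 and 1.75 FPKM. Dennd1c was lowest, at 0.277 ± 0.0862 FPKM in TG and 0.510 ± 0.0954 in WT.

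**Figure D5:**
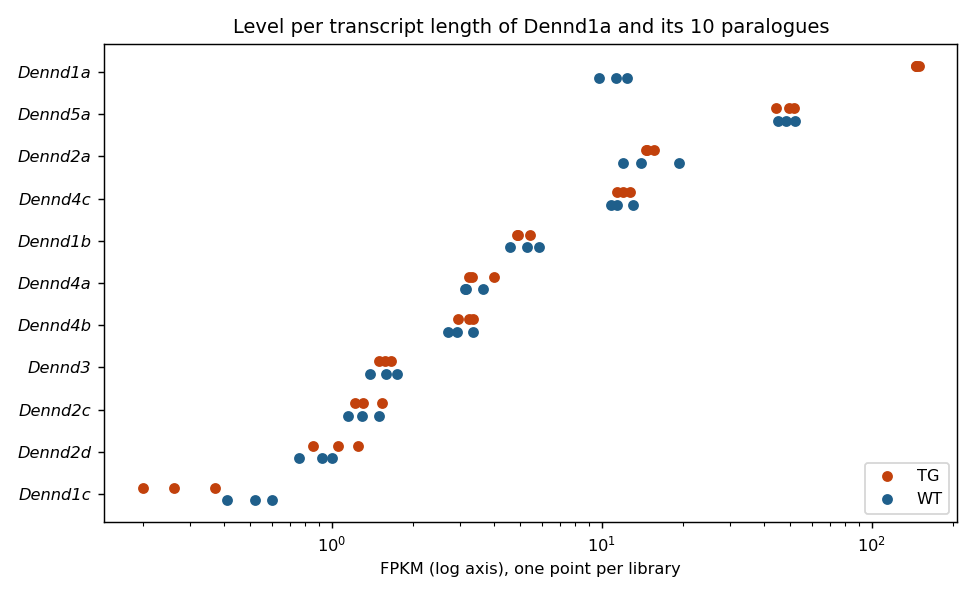
FPKM of Dennd1a and its 10 paralogues in each library on a log axis, with TG points above WT points and the paralogues ordered by their mean over the 6 libraries. Dennd1a lies between 146 and 150 FPKM in TG and between 9.79 and 12.5 FPKM in WT, which places it above Dennd5a in TG and below it in WT.

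Set against the transgene, the 10 paralogues together summed to overlapping levels, 97.2, 85.8 and 91.5 FPKM in TG libraries 1 to 3 and 101, 88.0 and 84.8 FPKM in WT libraries 1 to 3. Dennd1a alone measured 147, 146 and 150 FPKM in TG libraries and 11.3, 9.79 and 12.5 FPKM in WT libraries. It therefore made up 61.7% ± 1.45 of the summed FPKM of the 11 genes in TG and 10.97% ± 1.59 in WT (SD, n = 3 each). Within the DENND1 subfamily, the genes with the same target Rab, Dennd1a held 96.5% ± 0.174 of the summed FPKM in TG and 65.9% ± 4.08 in WT. The ratio of Dennd1a to Dennd1b was 29.1 ± 1.95 in TG and 2.16 ± 0.478 in WT. Gene counts do not separate transgene transcripts from those of the endogenous Dennd1a gene.

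TG replicate 1 was the highest TG library for 7 of the 10 members (Dennd1b, Dennd2a, Dennd2c, Dennd3, Dennd4a, Dennd4c and Dennd5a), where it was the highest for 34.0% of all tested genes, and TG replicate 2 was the highest for 0 of 10, where it was for 37.2% of all genes. Among WT libraries, replicate 1 was the highest for 5 of 10 members and for 32.0% of all genes. The members share these libraries, so the counts are not independent of each other and no test was made.

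Lists of other genes of the pathway are given by their counts beside those over all tested genes, of which edgeR called 1.05% and 4.08% had an unadjusted p under 0.05. In lists of 8 to 14 genes such shares amount to about 0 or 1 gene, so counts of 0 are near the background. Of 14 further DENN family genes, edgeR, DESeq2 and limma-voom each called 0, and in edgeR 0 were under 0.05 before adjustment, with a median log2 fold change of -0.06 and 10 of 14 below 0. Sbf1, a myotubularin-related pseudophosphatase, measured 84.6 ± 2.17 CPM in TG ovaries and 93.7 ± 4.31 CPM in WT ovaries (SD, n = 3 each), with a fitted log2 difference of -0.15 (SE 0.08). For Sbf1 and Sbf2 every TG library was below every WT library, as for 5.04% of all tested genes. Dennd5b, the closest relative of Dennd5a, had 0.17 (SE 0.11), Madd, an exchange factor for Rab3, had -0.20 (SE 0.12), and Smcr8, a partner of C9orf72 in autophagy, had -0.09 (SE 0.09).

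Of 14 Rab genes that DENN proteins act on or are linked to, 12 were tested. Each of the 3 tools called 0 of them, 0 were under 0.05 before adjustment in edgeR, and their median log2 fold change was -0.02. Rab35 measured 78.4 ± 1.97 CPM in TG ovaries and 81.3 ± 4.26 CPM in WT ovaries (SD, n = 3 each), with a log2 fold change of -0.05. Rab9, the target of DENND2 proteins, measured 59.6 ± 2.04 CPM in TG ovaries and 60.9 ± 1.57 CPM in WT ovaries. Rab12, the target of DENND3, measured 117 ± 7.11 CPM in TG ovaries and 116 ± 2.49 CPM in WT ovaries. Rab10, the target of DENND4 proteins, measured 258 ± 4.55 CPM in TG ovaries and 248 ± 14.0 CPM in WT ovaries. These 4 genes overlapped between genotypes. The target of DENND5 proteins was scarce: Rab39 had between 5 and 8 counts in TG libraries and between 6 and 12 in WT libraries and was not tested, and Rab39b measured 2.88 ± 0.995 CPM in TG ovaries and 1.98 ± 0.367 CPM in WT ovaries, with a fitted log2 difference of 0.54 (SE 0.30). Rab9b, also not tested, had 5 counts or fewer in every library. Rab8a, at -0.09 (SE 0.07), and Rab21, at -0.09 (SE 0.09), had the next smallest p.

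Of 14 Rab35 inactivators (TBC domain proteins) and effectors, each tool called 0 and 0 were under 0.05 before adjustment in edgeR, with a median of -0.04. Tbc1d13, a GTPase-activating protein for Rab35, came nearest, at 59.8 ± 4.38 CPM in TG ovaries and 68.0 ± 1.49 CPM in WT ovaries (SD, n = 3 each), with a fitted log2 difference of -0.18 (SE 0.08, unadjusted p = 0.0523). Ehd1, a membrane-remodelling ATPase of recycling endosomes, had -0.13 (SE 0.08), Micall1, a scaffold on the same tubules, had -0.09 (SE 0.08), and the actin-bundling protein Fscn1 had -0.08 (SE 0.08). For Tbc1d13 and Ehd1 every TG library was below every WT library, as for 5.04% of all tested genes. Of the 8 clathrin and AP-2 genes each tool also called 0, with 0 under 0.05 before adjustment in edgeR and a median of -0.01. The clathrin light chain gene Cltb had the smallest p, at 34.4 ± 2.22 CPM in TG ovaries and 40.7 ± 5.15 CPM in WT ovaries, with a fitted log2 difference of -0.24 (SE 0.11). The AP-2 subunit Ap2b1 had -0.07, the light chain gene Clta -0.04 and the heavy chain gene Cltc 0.05.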

How the data were processed

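Ovary RNA of 3 TG and 3 WT mice was sequenced on a BGISEQ-500 platform, per the labels' protocols. Bowtie2, DESeq2 1.4.5, RSEM 1.3.1 and build mm10 are listed, without roles, in the submitters' processing notes. The annotation and strandedness are not given in the sources used here. The table deposited by the authors holds estimated counts per gene, of which 8.50% to 9.12% of values per library are not whole, and a second set of values deposited by the authors, taken to be FPKM: for 173 genes with 1 transcript of at least 3000 bases, count over value and length gave a median of at least 94.8% of the library total (full transcript length, which overstates the usable length).

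Rounded counts entered edgeR 4.0.16 under R 4.3.3 (TMM, filterByExpr, quasi-likelihood, two-sided, Benjamini-Hochberg over 14124 genes, threshold 0.05), with genotype as the single factor, and checked on simulated data. The SE is the log2 fold change over the square root of F. Alternatives were RLE, upper-quartile and no factors, other filters, a replicate block, left-out libraries, DESeq2 1.42.0, limma-voom and limma-trend on log2(FPKM + 1) and log2(FPKM + 0.1) with limma 3.58.1, and, chosen after seeing the data, summing genes that share reads. Coordinates come from RefSeq on GRCm38.p6, to which mm10 corresponds. Named genes are all members, up to 4 per pathway list by p, the Rabs that members act on, and the 5 genes most like a member with an unadjusted p under 0.05. Crb3, Cept1, Cd3e, Lck, Cd79a and Sbf2 were named after their values were seen. Members and lists were chosen with earlier results of these data known. Intervals are for the fitted difference between genotypes, not for the range of single animals, and rest on the variation between these animals.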

Additional observations from a re-analysis of the deposited data

How the results depend on the processing

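No member was called under any of the 18 alternatives, whose lowest adjusted p for a member was 0.705 (Dennd1c with the replicate number as a block). All genes called numbered 149, and between 119 and 200 over the alternatives. Dennd1c stayed below 0 in the 15 alternatives that tested it, with an unadjusted p under 0.05 in 8 of them. Several of these refit the same libraries, and 1 of the 15 tested its sum with Crb3 (-0.27, unadjusted p = 0.186 in edgeR). With 1 library left out Dennd1c lay between -1.14 and -0.71, with an unadjusted p from 0.0228 to 0.101 in edgeR. It was -0.92 in DESeq2 (unadjusted p = 0.0933) and -0.79 without TG replicate 2 and WT replicate 3 (unadjusted p = 0.112 in edgeR). The minimum of 50 counts and the FPKM filter removed it. Whether the replicate numbers pair the samples was not settled. Correlations of deviations from the genotype mean were 0.228, 0.0797 and 0.0935 between same-numbered libraries. Between TG and WT libraries of unlike number they were lower, from -0.130 to 0.0346. Deviations within a genotype sum to 0, so these values are tied to the same-numbered ones and give no separate evidence of pairing. The block changed no member's call (0 of 10), while all genes called became 159.

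Signs turned in 23 of 177 cases, none of them called. The largest turned value was 0.19 (SE 0.10), for Dennd2a without WT replicate 1. Dennd2a was 0.0016 with the replicate block, 0.0042 in limma-voom, 0.014 on log2(FPKM + 1) and 0.017 on log2(FPKM + 0.1). Dennd3 was 0.0038 on log2(FPKM + 1) and 0.0074 on log2(FPKM + 0.1), Dennd5a 0.0057 with upper-quartile and 0.0017 with no factors, and Dennd4c -0.042 without TG replicate 2 and WT replicate 3. With 1 library left out the ranges were -0.15 to 0.015 for Dennd1b, -0.16 to 0.19 for Dennd2a, -0.020 to 0.16 for Dennd2c, -0.020 to 0.22 for Dennd2d, -0.15 to 0.014 for Dennd3, -0.018 to 0.15 for Dennd4a, -0.0034 to 0.12 for Dennd4b, -0.055 to 0.080 for Dennd4c and -0.056 to 0.045 for Dennd5a. The cause was not tested. The median of the 10 lay between -0.06 and 0.03 with 1 library left out. Dennd1c and Dennd2d had the fewest counts of the 10. Theirs were also the fractional counts that complemented those of a neighbouring gene, and these limits were not separated.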
